A study of Mus musculus with 3 samples.

Results

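Basophils are rare granulocytes of the blood. Here they were the barcodes of 3 mouse blood libraries that carried at least 3 UMIs (unique molecular identifiers, each of which marks 1 captured RNA molecule) summed over 6 genes, Mcpt8, Cpa3, Gata2, Ms4a2, Cd200r3 and Fcer1a, with at most 2 UMIs of the platelet gene Pf4, at most 1 UMI of the B cell genes Cd79a and Cd79b together and at most 1 of the T cell genes Cd3d, Cd3e and Cd3g together. This rule was applied to kept cells, barcodes with at least 200 genes, at most 7.5% mitochondrial UMIs and under 20% haemoglobin UMIs, and it found 147 basophils among 28333 kept cells. The libraries were made from peripheral blood mononuclear cells (PBMCs) of female C57BL/6 mice. The young library came from mice aged 8 weeks, which were purchased, and the aged library from mice aged 16 months, which were reared in the laboratory. The aged-GA library came from mice of that age given glycyrrhizic acid (GA), a compound of liquorice root, for 1 month by injection into the tail vein, and the methods give control mice phosphate-buffered saline by that route, while the labels list no treatment for the young and aged libraries. PBMCs came from several mice a group, which cannot be told apart in the files. Each group was 1 library, so age, treatment, source of the mice and library cannot be told apart, and no test between groups was possible. The 95% intervals of levels and shares below cover counting error only, and are exact unless stated otherwise. The 3 files held 58894294 UMIs in 10842 barcodes for young, 82260961 in 16038 for aged and 98155671 in 17332 for aged-GA mice.

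Basophils arise in the bone marrow under the control of the transcription factor Gata2 and depend on interleukin 3. They bind IgE through the high-affinity Fc epsilon receptor and, once it is cross-linked, release histamine and lipid mediators from granules and membranes and secrete interleukin 4 and interleukin 13. They share many genes with tissue mast cells, but circulate in blood and carry the protease Mcpt8, which marks them in mice.

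As 6 genes define these cells, the DNA before their transcription starts was searched for the letters AGATAA or TGATAA on either strand. The stretches are shown for the 4 genes that held them. These letters are forms of the motif that Gata factors bind, and other forms of it were not looked for. The sequences are from RefSeq (build GRCm38.p6), cover the 250 bases before the start in the 5′ to 3′ direction of the gene, and have each match in capitals. They lie at chr3:20242182-20242431 on the minus strand for Cpa3, chr19:11623720-11623969 on the minus strand for Ms4a2, chr16:44943428-44943677 on the plus strand for Cd200r3 and chr1:173227230-173227479 on the minus strand for Fcer1a.
Cpa3: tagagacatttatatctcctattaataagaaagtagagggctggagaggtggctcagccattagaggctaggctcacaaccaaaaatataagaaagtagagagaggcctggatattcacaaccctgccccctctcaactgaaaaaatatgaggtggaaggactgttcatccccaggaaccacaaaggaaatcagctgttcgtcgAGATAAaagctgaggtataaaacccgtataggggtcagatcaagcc
Ms4a2: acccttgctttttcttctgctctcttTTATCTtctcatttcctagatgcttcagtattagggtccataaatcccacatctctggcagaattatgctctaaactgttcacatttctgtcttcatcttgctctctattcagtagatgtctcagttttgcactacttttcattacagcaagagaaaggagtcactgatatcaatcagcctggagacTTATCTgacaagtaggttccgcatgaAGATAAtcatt
Cd200r3: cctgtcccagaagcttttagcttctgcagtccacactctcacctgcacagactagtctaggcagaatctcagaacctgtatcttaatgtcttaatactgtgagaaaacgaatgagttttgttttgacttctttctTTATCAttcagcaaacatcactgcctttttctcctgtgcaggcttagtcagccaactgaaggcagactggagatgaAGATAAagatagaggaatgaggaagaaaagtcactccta
Fcer1a: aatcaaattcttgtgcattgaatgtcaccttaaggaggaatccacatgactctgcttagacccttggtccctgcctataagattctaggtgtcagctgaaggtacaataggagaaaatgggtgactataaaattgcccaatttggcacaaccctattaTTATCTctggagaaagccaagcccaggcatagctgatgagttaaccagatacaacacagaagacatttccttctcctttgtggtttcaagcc
Ms4a2, the beta chain of the Fc epsilon receptor, had 3 matches, Cd200r3, a receptor that pairs with activating adaptors, had 2, and Cpa3, a carboxypeptidase of the granules, and Fcer1a, the IgE-binding alpha chain, had 1 each. The letters were not found in the windows of Mcpt8 or of Gata2, which has more than 1 start. Of 32851 start regions of mouse genes, 16.6% held a match. Of Hdc, Cyp11a1, Il4, Il6 and Ccl3, basophil genes outside the rule that were also looked up, a match to these letters was found for Il6 alone. Other forms of the motif in their windows were not counted. A match in this window is a description of the sequence, and binding of any factor was not measured.

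Basophils were found in both aged libraries and in none of the young cells. They were 0 of 8354 kept young cells, which allows a share of up to 0.0359% by the approximate limit of 3 cells in 8354. In the aged libraries they were 117 of 9136 kept aged cells (1.28%, 1.06 to 1.53%) and 30 of 10843 kept aged-GA cells (0.277%, 0.187 to 0.395%). The share was thus 4.63-fold lower in the aged-GA than in the aged library (log2 ratio -2.21, -2.79 to -1.63 by a normal approximation). The intervals of the aged libraries did not overlap, and both lay above the upper limit of the young one. Relative to other myeloid cells the difference was smaller, with 5.93 basophils per 100 gated neutrophils and monocytes in aged and 3.58 in the aged-GA library (log2 ratio -0.73). The young library held 66 such neutrophils and monocytes against 1974 and 837, so that other myeloid cells were also scarce in it. For these ratios to myeloid cells no interval was computed in any library, and the lack of overlap above holds for shares of kept cells only.

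**Figure D1:**
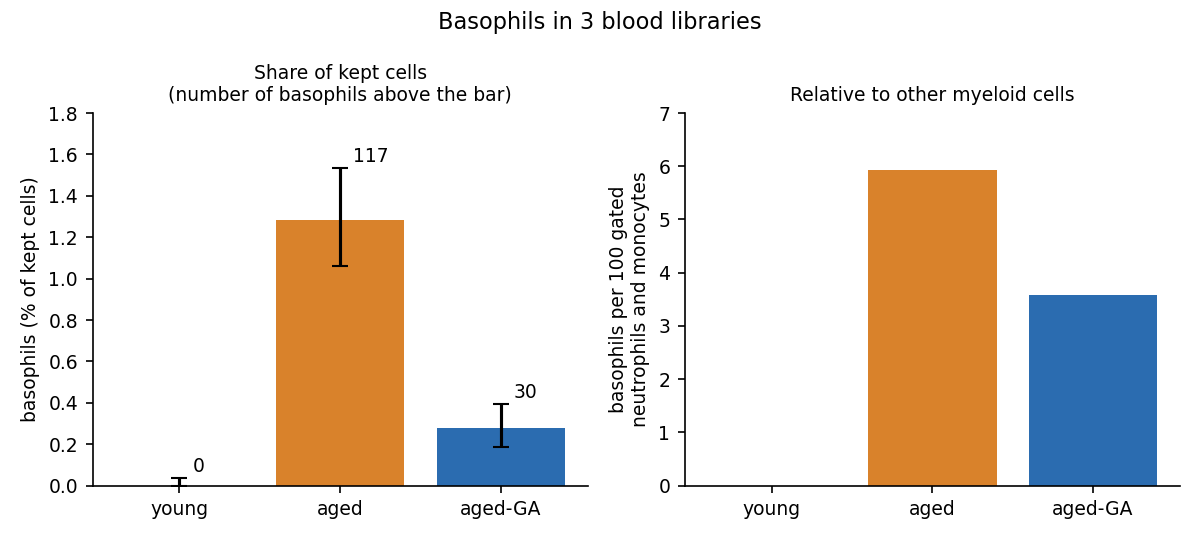
Left, basophils as a percentage of kept cells in the young, aged and aged-GA libraries (bars), with 95% intervals and the number of basophils above each bar. The intervals are exact binomial for aged and aged-GA, and the young upper limit is approximate. Right, basophils per 100 gated neutrophils and monocytes, without intervals. The bars of the share stand at 0 for young, 1.28% for aged and 0.277% for aged-GA mice, and against neutrophils and monocytes the 2 aged libraries stood at 5.93 and 3.58.

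The rule genes were also counted one by one over all young barcodes, which describes the same absence and is no separate check of it. Of Mcpt8, Gata2, Ms4a2 and Fcer1a, not 1 UMI was counted in any of the 10842 young barcodes. Cpa3 had 6 UMIs there and Cd200r3 48, and no kept young cell had more than 2 UMIs of the 6 genes together. In all aged barcodes, Mcpt8 had 508 UMIs and Gata2 696, and in all aged-GA barcodes 184 and 222. Il6 and Il13, cytokine genes outside the rule that basophils of the aged libraries carried, were at 0 UMIs in kept young cells. Of the 18 basophil markers outside the rule, Prss34 and Ms4a3 were also at 0 there. The others were not, among them Ccl3 with 209 UMIs, Hdc with 154, Il3ra with 141, Csf1 with 21, Il4 with 6 and Cyp11a1 with 3.

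The 147 cells carried basophil genes that the rule had not used. Of 18 such markers, the median aged basophil had a UMI of 10 (range over cells 5 to 15) and the median aged-GA basophil of 9.5 (6 to 16). Hdc, the enzyme that makes histamine, was found in 116 of 117 aged and 30 of 30 aged-GA basophils, at 4896 and 4558 CPM (UMIs of the gene per 1000000 UMIs of the same cells). After each cell was thinned to 1000 UMIs, which left out 6 aged and 0 aged-GA basophils, Hdc was still found in 95.5% and 96.7% of them, against 1.34% and 1.22% of T cells. Hdc was also present in neutrophils, at 1012 CPM in aged and 1588 in aged-GA cells, and is therefore not particular to basophils. Of the rule genes themselves, at least 3 of 6 were found in 108 aged and 26 aged-GA basophils, and all 6 in 28 and 6.

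Mast cell markers and the granule genes of eosinophils, the nearest cell types, were almost absent. Of 7 mast cell markers, Cma1, Mcpt4, Tpsb2, Tpsab1, Mrgprb2 and Mrgprb1 were at 0 UMIs in the basophils of both libraries. Kit, the stem cell factor receptor, had 2 UMIs in aged and 0 in aged-GA basophils. Of 7 eosinophil markers, the granule genes Epx, Prg2 and Prg3 were at 0, and Siglecf and Ear2 gave all 18 UMIs in aged and all 10 in aged-GA cells. That list was at 51.0 CPM in basophils and 49.1 in the other aged cells, and at 117 and 17.4 CPM in those of the aged-GA library. The rule limited Cd3d, Cd3e, Cd3g, Cd79a, Cd79b and Pf4, so low levels of T cell, B cell and platelet markers were in part set by it. The 9 T cell markers had 10 and 13 UMIs in all, with Cd3d and 3 others at 2 UMIs each in aged and Trbc2 at 6 UMIs in aged-GA cells, and the 7 NK cell markers had 6 and 2, with Gzma and Klre1. B cell markers summed to 292 and 481 CPM, against 12035 and 14144 in the other cells, and were led by Igkc. Dendritic cell markers were at 87.9 and 23.4 CPM, led by Bst2, with Siglech, Xcr1 and Clec9a at 0. Platelet markers, despite the limit on Pf4, were higher in sum in basophils, at 352 and 258 CPM against 47.5 and 59.0 in the other cells. They were led by Itga2b, an integrin chain, at 233 and 211 CPM against 5.69 and 7.60 in the other cells. This gene gave 82 of 124 UMIs of the list in aged and 18 of 22 in aged-GA basophils. Pf4 stood at 28.4 and 23.4 CPM, against 21.6 and 27.8 in the other cells. Red cell markers stood at 10796 and 9246 CPM, led by Hbb-bs, against 8551 and 6789 in the other cells, and every basophil had a UMI of them. The part of free red cell RNA in these levels was not tested.

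Neutrophil markers were also present, and S100a8 came mostly from few cells in both libraries. The markers summed to 7828 CPM in aged and 1852 in aged-GA basophils, against 15396 and 7403 in the other cells. Of 1102 UMIs of S100a8, an abundant calcium-binding protein of neutrophils, in aged basophils, 580 came from 1 cell and 96.7% from 5 cells. Of its 63 UMIs in aged-GA basophils, 57 came from 1 cell and 96.8% from 5 cells. After thinning to 1000 UMIs, S100a8 was found in 14.4% of aged basophils (8.47 to 22.4%), near the 9.01% of T cells and 11.2% of B cells, which should lack it, and in 6.67% of aged-GA basophils, near 6.60% and 7.63%. Thinned to 500 UMIs, the share was 13.7% of aged basophils (8.02 to 21.3%) and above the 5.36% of T cells and 5.90% of B cells. At full depth the shares were 33.3% in aged and 23.3% in aged-GA basophils, at median depths of 2366 and 1992.5 UMIs, and 30.6% and 27.6% in T cells at 4605 and 5825.5 UMIs. Monocyte and macrophage markers stood at 3246 and 2285 CPM, led by Lyz2 in aged and Cst3 in aged-GA cells. Of the aged basophils, 8 also passed the gate for neutrophils and 3 that for monocytes, as did 3 and 1 of the aged-GA basophils, and a doublet caller marked 3 aged and 1 aged-GA basophils.

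Basophils had fewer UMIs than the median kept cell and spread over a wide range of depth. The median basophil held 2366 UMIs and 1052 genes in the aged library and 1992.5 UMIs and 1024 genes in the aged-GA library, against 3512 and 4319 UMIs in the median kept cell. UMIs per basophil ran from 772 to 20942 and from 1183 to 12565. The mitochondrial share was 1.5% and 2.5%, against 3.00% and 4.44% in kept cells. The 2 libraries shared no basophil barcode. In all, 352708 UMIs of basophils were counted in the aged library and 85336 in the aged-GA library, where 1 UMI equals 11.7 CPM, so that levels of rare genes there are known only roughly.

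The rule's threshold fell where few cells lay. With all other conditions met, exactly 2 UMIs of the 6 genes were found in 5 aged and 1 aged-GA cells, of which 4 and 0 had a UMI of Il4, Il6 or Cyp11a1. Exactly 3 were found in 9 and 3 cells, of which 5 and 3 had one. The median basophil had 11 of these UMIs in the aged library and 7.5 in the aged-GA library, and the highest 65 and 76. The limits on platelet, B and T cell genes left out more. Kept barcodes with 3 or more UMIs of the 6 genes that went over a limit numbered 21 in the aged and 19 in the aged-GA library, at a median of 7236 and 9086 UMIs, above the basophils. The doublet caller marked 7 and 5 of them, against 3 and 1 of the basophils. The part of other cells in their levels was not tested. Without the limits the share would be 1.51% in aged and 0.452% in aged-GA mice (log2 ratio -1.74).

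The 15 genes that stood highest in aged basophils over the other kept cells of that library included all 6 genes of the rule. Since the cells were chosen by those genes, these levels are a description with no test. Of 1012 genes with at least 50 UMIs in aged basophils, 293 (29.0%) were at 2-fold or more over other cells. The first 2 in rank were Ccl4 and Ccl3, chemokines that draw monocytes, NK cells and T cells. The others outside the rule were Cyp11a1, which makes pregnenolone from cholesterol, Ier3, an early response gene, Il4, the cytokine of type 2 immunity, Rgs1, a brake on chemokine receptor signals, Cd63, a granule membrane protein exposed when granules are released, Csf1, the growth factor of macrophages, and Egr3, a transcription factor induced by antigen receptors. All 15 were also past 2-fold over other cells in the aged-GA library, where the 6 genes of the rule again chose the cells. The share of all genes past 2-fold over other cells was counted in the aged library only.

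Ccl4 was at 36058 CPM (35434 to 36690) in aged and 23788 CPM (22765 to 24846) in aged-GA basophils, and had a UMI in every one of them. The next highest class was NK cells, at 1449 and 1400 CPM. Ccl3 was at 18310 CPM (17866 to 18762) and 12644 CPM (11901 to 13422), against 472 and 305 CPM in NK cells and 220 and 547 CPM in neutrophils. In young NK cells, where no basophil was found beside them, Ccl4 was at 839 and Ccl3 at 148 CPM.

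**Figure D2:**
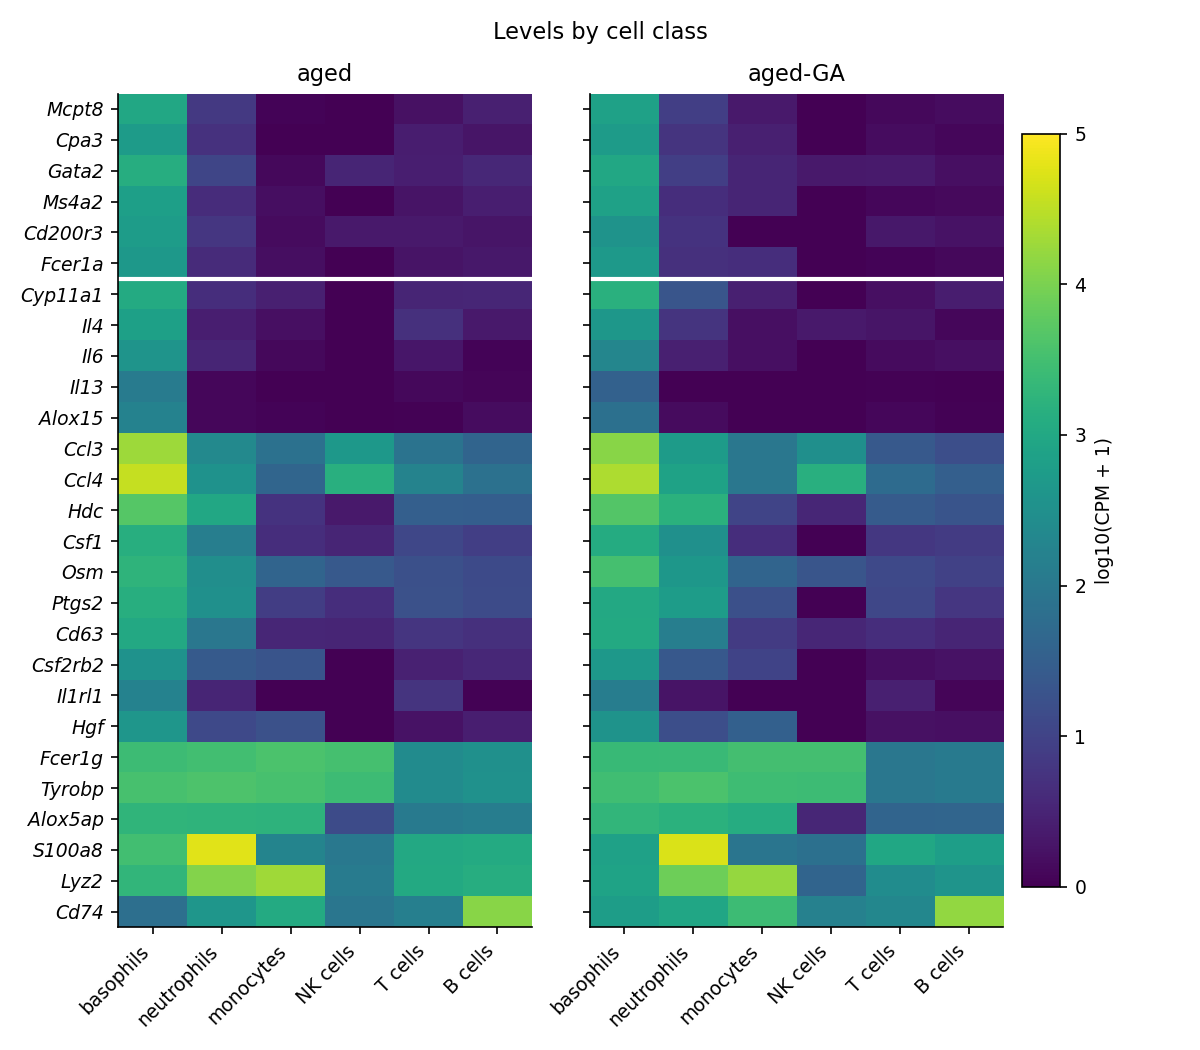
Level of 27 genes, as log10(CPM + 1), in basophils and 5 other gated classes of the aged and aged-GA libraries; the 6 genes above the white line are those of the rule. Genes from Cyp11a1 to Alox15 were far higher in basophils than in the other classes, Ccl3, Ccl4, Hdc, Csf1 and Osm were also found in neutrophils or NK cells, and Fcer1g, Tyrobp and Alox5ap stood at similar levels in several classes.

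In the aged library few cells thus held most transcripts of several genes, while in the aged-GA library the basophils held a smaller part of them. Aged basophils held 0.797% of the UMIs of kept cells but 62.6% of those of Ccl4 and 62.3% of those of Ccl3, 73.4% of Il4, 81.8% of Il6 and 80.8% of Alox15, a lipoxygenase. In aged-GA mice basophils held 0.142% of UMIs and 25.4% of Ccl4, 26.5% of Ccl3, 40.7% of Il4, 25.4% of Il6 and 40.0% of Alox15. For genes shared with neutrophils or other cells, basophils held less, such as 23.6% and 7.03% of Hdc, 33.6% and 7.86% of Csf1 and 2.48% and 1.87% of Alox5ap, the helper of 5-lipoxygenase. Over all kept cells, Ccl4 stood at 459 CPM in the aged library and 133 CPM in the aged-GA library (log2 ratio -1.78), and with the basophils left out at 173 and 99.6 CPM (log2 ratio -0.80). For Ccl3 these ratios were -1.79 and -0.83. Barcodes that went over a limit on platelet, B or T cell genes held a further 14.8% and 18.5% of Ccl4 UMIs, 13.5% and 59.7% of those of Il6 and 11.0% and 53.3% of those of Alox15.

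**Figure D3:**
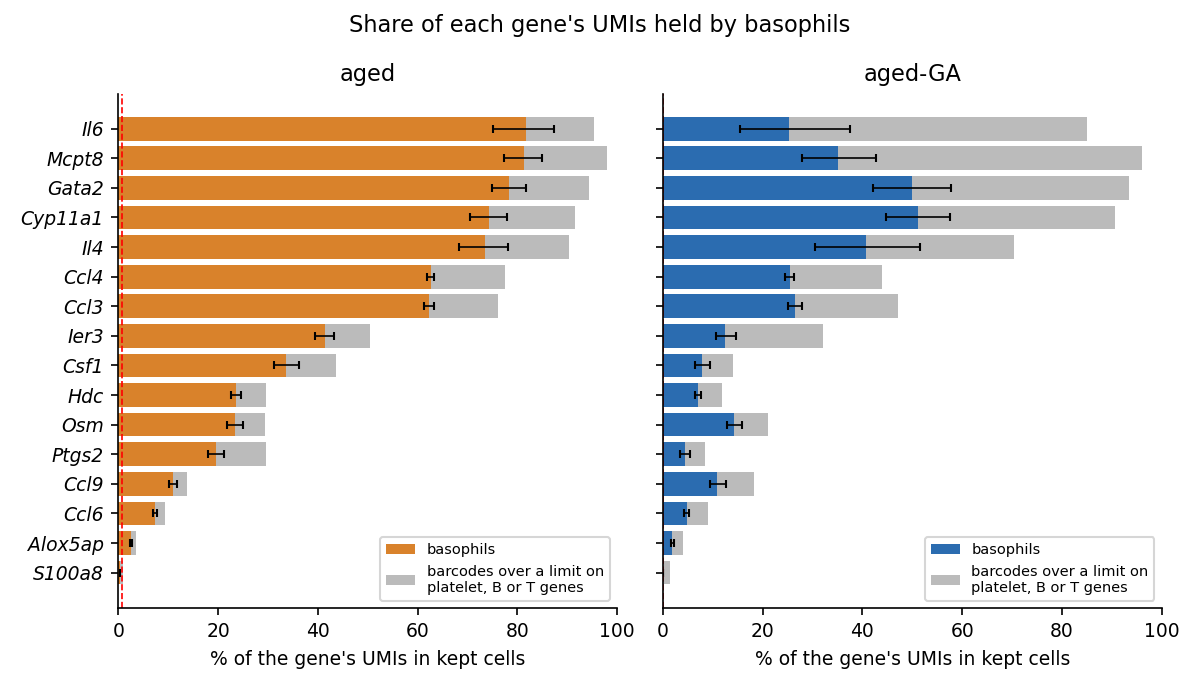
Share of each gene's UMIs in kept cells that came from basophils (coloured bars, with exact binomial 95% intervals) and from barcodes that had 3 or more UMIs of the rule genes but went over a limit on platelet, B or T cell genes (grey), for aged and aged-GA mice; the dashed line is the basophils' share of all UMIs, 0.797% and 0.142%. Of the genes plotted, Il6 (81.8%) and Mcpt8 (81.4%) have the highest coloured bars in aged and Cyp11a1 (51.2%) in aged-GA mice, where the rule genes Ms4a2 (60.4%) and Fcer1a (58.3%), not plotted, were higher.

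The basophils of the 2 aged libraries were then compared gene by gene. Of 2949 genes that reached 20 UMIs over the 2 libraries together, 106 (3.59%) were 2-fold or more higher and 174 (5.90%) 2-fold or more lower in aged-GA than in aged basophils on the scale of log2(CPM + 10), 9.49% in either direction, with a median log2 ratio of 0.00. The 6 rule genes, which chose the cells, were within 2-fold. For Mcpt8 the log2 ratio of -0.45 was -1.39 with the cell highest in the gene left out of each library and -1.42 without basophils holding Ngp, Camp, Ltf or Retnlg, and for Cd200r3 that of -0.66 was -1.14 with at least 10 UMIs of the rule genes. Of 16 counted markers outside the rule, 2 were lower, Il13 and Alox15, and none higher (median log2 ratio -0.21). With 1 library a group and 30 basophils in the smaller one, a 2-fold difference has no replicate check, and for many genes it rests on a few UMIs. With the barcodes over a limit on platelet, B or T cell genes counted as basophils, the balance turned to 154 higher and 83 lower of 4626 genes. Of the 36 genes of the lists or named here that were past 2-fold, 12 were so in the same direction in that setting, and 29 with the highest cell left out of each library. Leaving out the highest cell gave a median log2 ratio of -0.18 over all genes, with 70 higher and 396 lower, so lower ratios there were common to many genes. Over 16 other settings, 217 of 2069 log2 ratios of the genes within 2-fold had the opposite sign to the one given here, so signs of small ratios carry little weight.

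Of the receptor for IgE, the alpha and beta chains are genes of the rule, so their presence was set by it. Fcer1a, the alpha chain, was at 457 CPM in aged (389 to 533) and 492 CPM in aged-GA basophils (355 to 665), and Ms4a2, the beta chain, at 655 (573 to 745) and 715 (547 to 918). Both intervals overlapped between the libraries. Fcer1g, the signalling gamma chain, was at 2730 and 2320 CPM, close to the 3068 and 2417 CPM of neutrophils, which use it with other receptors. Downstream, Lat2, an adaptor, was at 471 and 293 CPM, Lyn, a kinase that starts the signal, at 162 and 129 CPM, and Syk, the kinase that carries it on, at 113 and 211 CPM. Of 17 counted genes of the list of 20 for this receptor and its proximal signals, none was past 2-fold between the libraries in either direction (9.49% of all genes were), and the median log2 ratio was 0.11. Under at least 1 of the 16 other settings, 6 of them passed it, Gab2, Grb2, Lat2, Lyn, Orai1 and Syk. The share of all genes that passed it under at least 1 of these settings was not counted. Lyn went from -0.30 to -1.09 with its highest cells left out, a setting that lowered the median log2 ratio of all genes to -0.18.

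Receptors for growth and alarm signals were found alongside. Csf2rb, the shared beta chain for interleukin 3, was at 936 CPM in basophils of aged and 891 CPM in those of aged-GA mice. Csf2rb2, the beta chain used by the mouse for interleukin 3 alone, was at 354 and 457 CPM, and Il3ra, its alpha chain, at 99.2 and 141 CPM. Il1rl1, the receptor of interleukin 33, was at 164 and 129 CPM, while in aged neutrophils and T cells it was at 2.34 and 4.54 CPM. Il18rap, a chain of the interleukin 18 receptor, was at 445 and 527 CPM, and Crlf2, the receptor of thymic stromal lymphopoietin, at 139 and 188 CPM. Csf2rb and Csf2rb2 are near-identical copies, so reads may be split between them and both levels are uncertain. Among the 16 counted genes of this list of 22, 1 was past 2-fold higher, Stat5b, from 23 and 12 UMIs (log2 ratio 1.00), and 1 lower, Socs1, a feedback inhibitor of cytokine signals, from 33 UMIs in aged and 1 UMI in aged-GA basophils (-2.25), against 3.59% higher and 5.90% lower of all genes. Counting the barcodes over a limit gave log2 ratios of 0.22 for Stat5b and -0.74 for Socs1. Of the genes within 2-fold, Il1rl1, Pim1 and Socs3 passed it under at least 1 of the 16 other settings, and the share of all genes that did so was not counted. The log2 ratio of Il1rl1 went from -0.33 to -1.53 with at least 10 UMIs of the rule genes.

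Il4 and Il6 were lower in aged-GA basophils by summed level, but not clearly by the share of cells. Il4 was at 689 CPM in aged (605 to 781) and 434 CPM in aged-GA basophils (305 to 598), in 74 of 117 and 12 of 30 cells (log2 ratio -0.66). The intervals lay just apart, and the log2 ratio ran over the other settings from -1.20 with the barcodes over a limit counted to -0.10 with at least 10 UMIs of the rule genes. Of the 37 UMIs of Il4 in aged-GA basophils, 13 came from 1 cell and 81.1% from 5 cells. At 1000 UMIs a cell, Il4 was found in 36.9% of aged (28.0 to 46.6%) and 16.7% of aged-GA basophils (5.64 to 34.7%), intervals that overlapped, against 0.192% and 0.0297% of T cells. Il13, its partner in type 2 responses, had 43 and 3 UMIs, and 22 of 23 aged and 2 of 3 aged-GA basophils with Il13 also had Il4. Il6, an inducer of acute phase proteins, was at 394 and 199 CPM from 139 and 17 UMIs, with intervals that did not overlap, and its log2 ratio of -0.95 ran from -1.34 with at least 10 UMIs of the rule genes to -0.49 with the barcodes over a limit counted. It was found in 23.4% of aged and 23.3% of aged-GA basophils at 1000 UMIs, in 21.4% and 13.3% at 500 UMIs and in 42.7% and 30.0% at full depth. At full depth 90 aged and 17 aged-GA basophils had Il4, Il6 or Il13, and 11 and 2 had all of them.

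Osm, which codes for oncostatin M, a cytokine of the interleukin 6 family, was higher in aged-GA basophils instead. Its level was 1812 CPM in basophils of aged and 3363 CPM in those of aged-GA mice (log2 ratio 0.89), in 99 and 28 cells, with a median of 17.7 and 28.7 UMIs per 10000. The ranges from the lower to the upper quartile of the cells overlapped, at 7.74 to 31.9 and 13.9 to 43.9 UMIs per 10000. With the barcodes over a limit counted as basophils the log2 ratio was 0.07. Csf1 was at 1378 and 1184 CPM, and Hgf, hepatocyte growth factor, at 417 and 363 CPM, with overlapping intervals for each. Tnf, the inflammatory cytokine, had 33 and 2 UMIs. Of 9 counted genes in the list of 14 cytokines and growth factors, 1 was past 2-fold higher (Il1b, with 66 of its 70 aged-GA UMIs in 1 cell) and 2 lower (Il13 and Tnf, with overlapping intervals), against 3.59% and 5.90% of all genes. None of the 3 was past 2-fold under every other setting. The median log2 ratio was -0.22, and Areg, which codes for amphiregulin, was at 0 UMIs in the basophils of both libraries.

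Chemokines were lower in sum in aged-GA basophils, at 42796 against 59656 CPM for the list of 10. None of its 6 counted members passed 2-fold, against 9.49% of all genes. With the barcodes over a limit counted as basophils, Ccl4 (log2 ratio -1.17) and Ccl3 (-1.04) were past 2-fold lower and Ccl5, a chemokine of T cells and NK cells, past it higher (3.89). Of these barcodes, 5 in the aged and 7 in the aged-GA library were over the limit on T cell genes. Without those barcodes, Ccl4 (log2 ratio -0.60) and Ccl3 (-0.53) made up the difference, and the 4 others had ratios above 0, with Ccl6 at 2764 and 3387 CPM and Ccl9, both chemokines of myeloid cells, at 1704 and 1957 CPM. Per cell, Ccl4 had a median of 307 UMIs per 10000 in aged (range over cells 12.2 to 1117) and 266 in aged-GA basophils (39.7 to 614). Ccl3 had a median of 136 (0 to 744) and 92.8 (20.3 to 371). The ranges of the cells overlapped for both genes, and the highest aged-GA cells lay well below the highest of the more numerous aged cells. Cells high in one were high in the other, with a Spearman correlation of 0.75 across 117 aged and 0.67 across 30 aged-GA cells, while Ccl4 and Hdc gave 0.01 and 0.12. These are descriptions across cells of 1 library, which share its depth. Cxcl2, which draws neutrophils, was at 715 and 844 CPM but in 25 and 5 cells, and its log2 ratio of 0.24 was -3.04 with the highest cells left out.

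**Figure D4:**
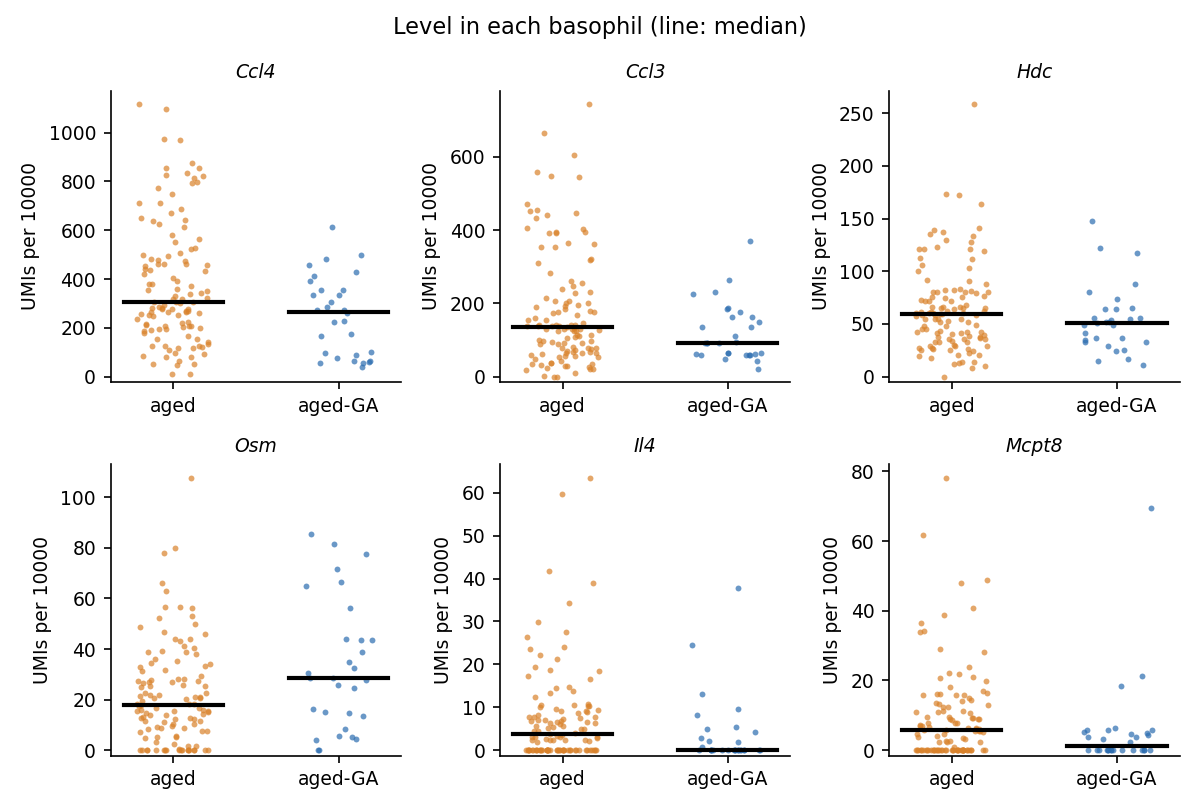
UMIs per 10000 of Ccl4, Ccl3, Hdc, Osm, Il4 and Mcpt8 in each aged (117) and aged-GA (30) basophil, with the median as a line. Medians for aged and aged-GA were 307 and 266 for Ccl4, 136 and 92.8 for Ccl3, 59.5 and 51.2 for Hdc, 17.7 and 28.7 for Osm, 3.87 and 0 for Il4 and 5.78 and 1.21 for Mcpt8, and the cells of both libraries overlapped for each gene.

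Among granule genes, Mcpt8, used by the rule, was at 981 CPM in basophils of aged and 715 CPM in those of aged-GA mice. It had a UMI in 75 of 117 and 15 of 30 cells, and 34 of its 61 UMIs in aged-GA basophils came from 1 cell. Cpa3 was at 553 and 563 CPM. Hdc (log2 ratio -0.10), Cd63 at 1055 and 1102 CPM, Srgn, the proteoglycan that packs granules, at 5027 and 4277 CPM, and Slc18a2, the transporter that loads histamine, at 105 and 152 CPM were all within 2-fold. Ctsg, cathepsin G, had 22 UMIs in aged basophils, 11 of them in 1 cell, and 0 in aged-GA basophils, and Gzmb, granzyme B, 39 and 3. These 2 were the genes past 2-fold lower of 13 counted in this list of 16, against 5.90% of all genes, and none was higher. The log2 ratio of Gzmb went from -1.42 to -0.57 with the barcodes over a limit counted. Prss34, a protease of basophils, had 8 UMIs in 5 aged cells and 6 UMIs in 1 aged-GA cell.

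Some enzymes of lipid mediators were found in basophils and others were not. Alox5ap was at 1834 and 1910 CPM and Alox5, which starts leukotriene synthesis, at 142 and 164 CPM. Ptgs2, the inducible cyclooxygenase, was at 1355 and 1019 CPM, with a log2 ratio of -0.41 that ran from -1.09 with the barcodes over a limit counted to 0.01 with a mitochondrial limit of 15%. Alox15 was at 167 and 70.3 CPM, from 59 UMIs in 45 cells and 6 UMIs in 5 cells, and Ptger3, a prostaglandin E receptor, had 24 and 2 UMIs. The last 2 were past 2-fold lower of 5 counted in the list of 12 (5.90% of all genes were), neither of them under every other setting. Ltc4s, leukotriene C4 synthase, and Ptgs1, the constitutive cyclooxygenase, were at 0 UMIs in the basophils of both libraries.

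The counted transcription factors and surface receptors lay within 2-fold between the libraries. Gata2 was at 1316 and 973 CPM, Cebpa, which steers granulocyte fate, at 292 and 422 CPM, Cebpb at 3351 and 2930 CPM and Runx1 at 312 and 492 CPM. Gata1 had 5 and 0 UMIs. None of the 12 counted transcription factors of 16, the 10 inhibitory and paired receptors of 14 or the 17 adhesion and homing genes of 20 was past 2-fold in either direction, against 9.49% of all 2949 genes. Gata2 and Cd200r3 among them chose the cells, and 1, 2 and 5 members of the 3 lists passed 2-fold under at least 1 of the 16 other settings: Runx2, then Cd200r3 and Pirb, then Ccr2, Cd44, Cxcr4, Itgal and S1pr4. The share of all genes that passed it under at least 1 of these settings was not counted. Among the receptors, Lilrb4a, an inhibitory one, was at 1131 and 1055 CPM, and Cd200r3 at 581 and 363 CPM. Among the homing genes, Itga2, the integrin detected as CD49b on basophils, was at 119 and 106 CPM, Cd9, a tetraspanin, at 2022 and 1348 CPM, and Cxcr4, the receptor that holds cells in the marrow, at 519 and 891 CPM, with a log2 ratio of 0.77 that was -0.19 with the barcodes over a limit counted.

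Activation genes lay on both sides of equal levels. Of 20 counted between the libraries, 2 were past 2-fold higher in aged-GA basophils, Dusp1, a phosphatase that limits MAP kinase signals, at 1137 and 2309 CPM, and Atf3, from 11 and 10 UMIs, against 3.59% of all genes. For Dusp1 the log2 ratio of 1.02 was 0.92 with the highest cells left out and 0.58 with the barcodes over a limit counted. For Atf3, 8 of the 11 and 7 of the 10 UMIs came from 1 cell in each library. None was past 2-fold lower, although Ier3, Nfkbia and Nr4a1 were at -1.03, -1.15 and -1.57 with the highest cells left out. That setting lowered the median log2 ratio of all genes to -0.18. In the other direction, Jun was at 1.16 with at least 10 UMIs of the rule genes and Dusp2 at 1.28 with the barcodes over a limit counted. The median log2 ratio of the list was 0.13. Fos was at 2019 and 3223 CPM and Jun, with which it forms AP-1, at 1171 and 2203 CPM. Ier3 was at 3144 and 1723 CPM (log2 ratio -0.86) and Nfkbia, the inhibitor of NF-kappaB, at 1213 and 668 CPM (-0.85). Egr3, outside the list, was at 1052 and 469 CPM (-1.15), in 78 and 10 cells. Egr1, Junb and Rgs1 had log2 ratios of -0.27, 0.04 and 0.25.

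Several of the largest differences rested on few UMIs or single cells. Among genes at 200 CPM or more in one library, the 10 highest in aged-GA over aged basophils were Cd74, Il1b, Hs3st1, H2-Q10, Klf2, Tsc22d3, Ift20, Hist1h1e, Mirt1 and Etfb, with log2 ratios from 3.01 to 1.26. H2-Q10 has near-identical copies, so its level is uncertain. Cd74, the invariant chain of MHC class II, was at 65.2 and 598 CPM, but 33 of its 51 UMIs in aged-GA basophils came from 1 cell. Il1b, the inflammatory cytokine, was at 139 and 820 CPM, and 66 of 70 UMIs came from 1 cell. With the cell highest in the gene left out of each library, its log2 ratio turned to -0.97 and that of Cd74 was 1.78. Hs3st1, a heparan sulphate enzyme, likewise had 15 of 18 UMIs in 1 cell. Klf2, a factor of quiescent cells, at 216 and 738 CPM in 40 and 16 cells, and Tsc22d3, a glucocorticoid-induced gene, at 190 and 551 CPM in 45 and 23 cells, were spread over more cells. Of the 63 UMIs of Klf2 in aged-GA basophils, 20 came from 1 cell. The log2 ratios of Klf2 and Tsc22d3, 1.73 and 1.49, were 1.37 and 1.44 without the highest cells. They were 1.44 and 0.73 with the barcodes over a limit counted. In the other kept cells both genes were also higher in the aged-GA library, at 1308 CPM in aged and 1939 in aged-GA for Klf2 and 445 and 616 for Tsc22d3.

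Of the 6 MHC class II genes, 4 were counted, and 3 of them were past 2-fold higher, Cd74, H2-Ab1 and H2-Eb1, against 3.59% of all genes. H2-Ab1 had 14 and 11 UMIs and H2-Eb1 11 and 11. The list summed to 227 CPM in basophils of aged and 961 CPM in those of aged-GA mice, against 9775 and 12849 CPM in the other cells, and the levels of B cell markers beside it were 292 and 481 CPM. Their part in this difference was not tested.

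The 10 lowest were Retnlg, S100a9, Sept1, S100a8, Id1, Hilpda, Lyz2, Brd2, Cox6c and Ifi27l2a, with log2 ratios from -3.84 to -1.25. Retnlg, S100a9, S100a8 and Lyz2 belong to the neutrophil and monocyte lists and came mostly from few cells: of 343 UMIs of Retnlg in aged basophils, 185 were from 1 cell. Of the 5 counted neutrophil genes, 3 were past 2-fold lower, and of 7 counted monocyte genes 2 were lower and 1 higher, against 5.90% lower and 3.59% higher of all genes. With the barcodes over a limit counted, S100a8, S100a9 and Retnlg turned to log2 ratios of 1.01, 1.02 and 1.01. Sept1, Id1 and Hilpda were more spread over cells. Sept1, a septin of the cytoskeleton, had 84 UMIs in 61 aged cells and 4 UMIs in 4 aged-GA cells, Id1, an inhibitor of differentiation factors, 76 and 6 UMIs, and Hilpda, a lipid droplet protein induced by hypoxia, 142 and 12. With the barcodes over a limit counted, their log2 ratios of -2.13, -1.49 and -1.45 were -0.83, -0.37 and -1.11. Ifi27l2a, an interferon-stimulated gene, was at 1015 and 422 CPM in 35 and 8 cells, and of 6 counted genes of that list 2 were past 2-fold lower, Ifi27l2a and Bst2, against 5.90% of all genes. The log2 ratio of Bst2 went from -1.32 to -0.47 with the barcodes over a limit counted.

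Progenitor and cell cycle genes were low, at 346 and 188 CPM for the list of 10, led by Tubb5 and Pcna. None of its 2 counted genes was past 2-fold, against 9.49% of all genes. Cd34, Kit, Flt3 and Mpo, genes of early progenitors, were all found in 1 aged basophil and in no other. That cell had 14811 UMIs, 3 UMIs of the rule genes, and none of Mcpt8 or Hdc.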

How the data were processed

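PBMCs of 3 groups of mice were profiled by droplet single-cell RNA sequencing (10x Genomics 3′ chemistry), 1 library per group. The authors deposited matrices of raw UMI counts per gene and barcode, made with Cell Ranger, whose version in the file headers is 5.0.0, against mm10 per the labels. The study describes several mice in each group, and how their blood was combined into 1 library is not given in the sources used here. Barcodes were filtered and gated as described above. UMIs were summed over basophils of each library and divided by their total (CPM), with exact Poisson intervals, and shares were given exact Clopper-Pearson binomial intervals. Log2 ratios of basophil sums used a pseudocount of 10 CPM, which understates differences of low genes, and those between the libraries took genes with at least 20 UMIs over both sums. Ratios of shares and of levels over all kept cells used no pseudocount. A gene was counted as higher or lower past 2-fold. Other cells were gated on their own markers, and cells were thinned without replacement to 1000 UMIs to compare detection. The members and the 25 gene lists were chosen with earlier results of these data known. Named genes were those of the lists, the 15 with the largest ratio over other cells in aged basophils (at least 50 UMIs), and the 10 with the largest ratio in each direction at 200 CPM or more in one library, leaving out genes of haemoglobins, mitochondria, ribosomal proteins and antigen receptor segments. Doublets were called with Scrublet in scanpy 1.11.5, run before the haemoglobin limit. This was changed after a first run on kept cells had marked almost no aged-GA cells, and called doublets were left in. Other values were computed with numpy 2.4.6, scipy 1.17.1 and pandas 2.3.3. The ratio was checked on simulated counts.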

Additional observations from a re-analysis of the deposited data

Results flagged for a closer look

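Barcodes outside the filters on cells, which were not counted as basophils in the comparisons above, also held basophil genes. In the aged library 23 such barcodes had at least 3 UMIs of the 6 rule genes, 22 of them with 20% or more haemoglobin UMIs and 1 with over 7.5% mitochondrial UMIs. In the aged-GA library there were 9, with 6 over the haemoglobin and 3 over the mitochondrial limit, and in the young library there were 0. Hdc was found in 22 and 9 of them. Their median depth was 6480 and 7452 UMIs, and their median haemoglobin share 57.4% and 49.6%.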

How the results depend on the processing

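No paired analysis was possible because each group has 1 library. The basophil share was 0 in young mice under every setting, and lower in aged-GA than in aged mice under each of them, with log2 ratios from -2.97 to -0.73. Shares in aged and aged-GA mice were 0.722% and 0.0922% with at least 10 UMIs of the rule genes (log2 ratio -2.97), 0.996% and 0.148% with 0 UMIs of the platelet, B and T cell genes, and 0.730% and 0.173% over all barcodes. Without limits on those genes the aged-GA share was 0.452%, and over neutrophils and monocytes the log2 ratio was -0.73.

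Counts of genes past 2-fold depended on the settings. Against 106 higher and 174 lower, there were 27 and 52 with a pseudocount of 50 CPM, 19 and 38 with at least 50 UMIs, 1082 and 1097 with at least 1 UMI, 70 and 396 with the cell highest in the gene left out (chosen after the data were seen, as were the settings without a haemoglobin limit and without cells passing another gate), and 154 and 83 without the limits, where 5 of the 20 genes named for their ratio between the libraries were still past 2-fold and 16 had the same direction. Leaving out the cell highest in the gene lowered the median log2 ratio of all genes to -0.18. Of 2596 log2 ratios of 171 genes under these settings, 229 had the opposite sign, 217 of them of genes within 2-fold and 12 of genes past it. The 12 follow. Those of Il1b were -0.87 with 0 UMIs of platelet, B and T cell genes, -0.85 without basophils holding Ngp, Camp, Ltf or Retnlg, -0.89 without cells passing another gate and -0.97 without the highest cell. Without limits, S100a8 was at 1.01, S100a9 at 1.02, Retnlg at 1.01, Lyz2 at 0.45 and Ly6c2 at 0.28. Lyz2 was at 1.36 with at least 10 UMIs of the rule genes, S100a9 at 0.41 without basophils holding the 4 neutrophil genes, and Ly6c2 at 0.22 with means of per-cell CPM. The cause was not tested.

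Detection in aged basophils was lower at lower depth. Thinned to 1000 UMIs, to 500 UMIs and not thinned, the share of aged basophils was 42.3%, 27.4% and 64.1% for Mcpt8 and 36.9%, 26.5% and 63.3% for Il4. Unthinned shares were 42.7% for Il6 and 33.3% for S100a8 in aged basophils, and 50% for Mcpt8, 40.0% for Il4 and 23.3% for S100a8 in aged-GA basophils, against 23.4%, 14.4%, 23.3%, 16.7% and 6.67% at 1000 UMIs. For Mcpt8 the aged-GA share was 26.7% at 500 UMIs, near the 27.4% of aged basophils. Prss34 went from 3.33% to 0 of aged-GA basophils at 500 UMIs.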

Other observations

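The basophil protease Prss34 had 295 UMIs in kept aged-GA cells, of which 283 (95.9%) were in a single barcode. That barcode was not counted as a basophil, since it had 2 UMIs of Cd79a and Cd79b, 1 above the limit. It held 121 UMIs of the rule genes, more than any basophil of either library, with 69 of Mcpt8 and 15 of Hdc, at 8439 UMIs in all. In kept aged cells Prss34 had 17 UMIs, of which 47.1% were in basophils and 47.1% in barcodes over a limit. In kept aged-GA cells, barcodes over a limit held 60.9% of the UMIs of Mcpt8, against 35.1% in basophils, while in aged cells they held 16.5% against 81.4%. The aged-GA comparison rests largely on the barcode described above, which held 69 of the 174 UMIs of Mcpt8, against 61 in basophils.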
